A study of Mus musculus with 6 samples.

Results

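Bone marrow holds stromal, bone, vessel and fat cells beside the blood-forming cells, and 36 genes of those cells were followed in the marrow RNA of 6 mice. The genes were listed by symbol, as genes of matrix, osteoblasts, the stem cell niche and vessels, by a rule that uses no measured value. All 36 were found among the 39179 genes in the count files, and all 36 passed the filter on low counts that left 15980 genes for testing. They were sorted by role into 14 matrix collagens and matrix proteins, 2 basement membrane collagens, 8 osteoblast and bone genes, 6 niche factors and stromal receptors, 4 endothelial genes and 2 fat cell genes.

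The 3 *MxCDX2* mice (genotype *RsCDX2::Mx1Cre*) carried the human *CDX2* coding sequence behind a loxP-flanked stop at *Rosa26*, together with a Cre recombinase driven by the interferon-inducible *Mx1* promoter. Expression from that promoter is not limited to blood cells. The 3 controls were littermates of 3 genotypes, with *RsCDX2* alone in control 1, *Mx1Cre* alone in control 2 and neither allele (wild type) in control 3, so that genotype and mouse cannot be told apart within the control group. All 6 mice, controls included, had been given poly(I:C) at 3 months of age in 3 injections of 10 µg per g of body weight, and the marrow was taken 6 weeks later. The injections were daily by the sample labels and at longer intervals by the methods of the study. Mouse *Cdx2* had 4, 0 and 0 counts in the controls and 152, 155 and 183 in the *MxCDX2* mice. These counts match the group of every mouse, but they cannot tell the 3 control genotypes apart. Only those reads of the human sequence that align to the mouse gene can be counted there.

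Marrow stroma secretes the fibrillar collagens and proteoglycans on which marrow cells lie, and its perivascular cells, marked by the leptin receptor, release the chemokine CXCL12 and the KIT ligand that hold and feed blood stem cells. Osteoblasts arise from the same stroma under the transcription factors RUNX2 and SP7 and lay down bone matrix proteins such as bone sialoprotein, osteopontin and osteocalcin. Vessels that line the marrow sinusoids bear VE-cadherin and the receptors for VEGF and angiopoietins, and rest on a basement membrane of collagen IV. These cells make up a small part of a marrow sample, and in bulk RNA fewer cells of a type and less RNA per cell cannot be told apart.

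Osteoblast promoters are known for RUNX sites, and the factor induced in these mice is a CDX protein, so the 250 bases before the annotated start were searched on both strands for ACCACA (or TGTGGT) for RUNX and TTTATNG (or CNATAAA) for CDX. RefSeq windows (GRCm38.p6) were at hand for 26 of the 36 genes. ACCACA was in 4 of these 26 (15.4%), near the 15.9% of 27025 genes. The 4 were *Mmp13*, *Spp1*, *Bglap* and *Runx2*, all of them among the 6 bone genes with a window. The CDX letters were in 6 of 26 (23.1%; *Postn*, *Mmp13*, *Ibsp*, *Spp1*, *Alpl* and *Emcn*), against 11.3% of the 27025. They too were in 4 of the 6 bone genes with a window. The windows of 3 bone genes are shown because they hold the RUNX letters, and those of *Col5a1* and *Cxcl12* because these genes were called lower below. Capitals mark the matches, and no capitals means that neither set of letters is in the stretch. The CDX matches shown read CTATAAA and so contain the letters of a TATA box, and a match of letters is not a measured binding site.
Bglap, chr3:88384467-88384716, minus strand: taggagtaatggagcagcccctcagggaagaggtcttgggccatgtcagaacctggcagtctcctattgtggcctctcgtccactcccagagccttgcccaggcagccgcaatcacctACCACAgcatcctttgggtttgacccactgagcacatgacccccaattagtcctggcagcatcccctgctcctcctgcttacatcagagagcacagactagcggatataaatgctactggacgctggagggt
Spp1, chr5:104434861-104435110, plus strand: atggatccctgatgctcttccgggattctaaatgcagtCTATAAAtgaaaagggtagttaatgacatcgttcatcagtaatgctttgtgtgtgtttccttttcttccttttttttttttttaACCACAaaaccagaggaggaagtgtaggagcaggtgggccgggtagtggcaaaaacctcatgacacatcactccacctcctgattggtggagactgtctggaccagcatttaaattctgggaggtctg
Mmp13, chr9:7272264-7272513, plus strand: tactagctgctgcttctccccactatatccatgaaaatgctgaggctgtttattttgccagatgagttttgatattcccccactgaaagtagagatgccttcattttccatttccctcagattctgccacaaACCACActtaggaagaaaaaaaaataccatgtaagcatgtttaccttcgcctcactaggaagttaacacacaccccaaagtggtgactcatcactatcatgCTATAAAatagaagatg
Col5a1, chr2:27886175-27886424, plus strand: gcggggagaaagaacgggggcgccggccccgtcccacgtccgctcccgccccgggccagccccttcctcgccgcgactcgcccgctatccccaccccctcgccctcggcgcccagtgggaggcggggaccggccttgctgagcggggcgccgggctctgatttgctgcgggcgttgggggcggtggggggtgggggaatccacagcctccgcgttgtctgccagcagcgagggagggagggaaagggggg
Cxcl12, chr6:117168285-117168534, plus strand: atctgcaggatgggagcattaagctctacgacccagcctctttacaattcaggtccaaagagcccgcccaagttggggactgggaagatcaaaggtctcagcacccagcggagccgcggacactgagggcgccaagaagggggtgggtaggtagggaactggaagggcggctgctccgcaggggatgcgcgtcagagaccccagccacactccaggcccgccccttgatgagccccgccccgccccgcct

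Counts on genes ran from 38646101 to 49899650 per mouse, and normalized counts are the counts after division by the TMM-adjusted library size and multiplication by its mean. A gene was called when edgeR's quasi-likelihood test gave an adjusted p below 0.05 and the absolute log2 fold change was above 1. Control 3, the wild-type mouse, stood apart from the other controls in blood cell markers, which are not among the 36 genes. Its 10 megakaryocyte and platelet markers summed to 390146 normalized counts, 7.70 times control 1 and 10.4 times control 2, and all 10 were highest there among controls. The 9 stem and progenitor markers summed to 2.76 times control 1 and 3.02 times control 2, again with all 9 highest in control 3. Log2 fold changes with and without this mouse are therefore plotted for all 36 genes, and both are given in the text for genes in which it differed most from the other controls. The share of reads outside annotated genes was 9.22%, 11.34% and 9.60% in controls 1, 2 and 3, and 9.85%, 14.06% and 9.31% in *MxCDX2* mice 1, 2 and 3.

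The stromal, bone and endothelial genes were mostly lower in *MxCDX2* marrow, with wide differences between mice of the same group. The mean of the *MxCDX2* mice was below that of the controls in 33 of 36 genes (91.7%), against 49.8% of all tested genes. *Col5a1*, *Cxcl12*, *Kitl* and *Cdh5* passed the test as lower, 4 of 36 beside a background of 9.03% of all tested genes called lower. None passed as higher, where the background was 4.59%. All 3 *MxCDX2* mice lay below all 3 controls in 12 genes (*Col5a1*, *Ibsp*, *Bglap*, *Alpl*, *Sp7*, *Cxcl12*, *Kitl*, *Angpt1*, *Pdgfra*, *Cdh5*, *Kdr* and *Tek*), where 20.7% of all tested genes did so. *Pdgfrb* alone lay above all controls in all 3, where 21.4% of tested genes did so.

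The median log2 fold change over the 36 genes was -1.13, against 0.002 over all tested genes. Without control 3 the median was -0.75, and 32 of the 36 genes were still below 0. Controls differed from each other far more in these genes than in others, with a median ratio of the highest to the lowest control of 3.54 against 1.42 for all tested genes. DESeq2 called 13 of the 36 (12 lower, and *Lpl* higher) and limma voom called *Col5a1* alone. *Col5a1* was the only gene of the 36 called in all 14 alternative fits. Without control 2, the control with the lowest counts of these genes, 7 of the 36 were called lower, with *Col6a1*, *Bgn* and *Lepr* added to the 4.

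**Figure D1:**
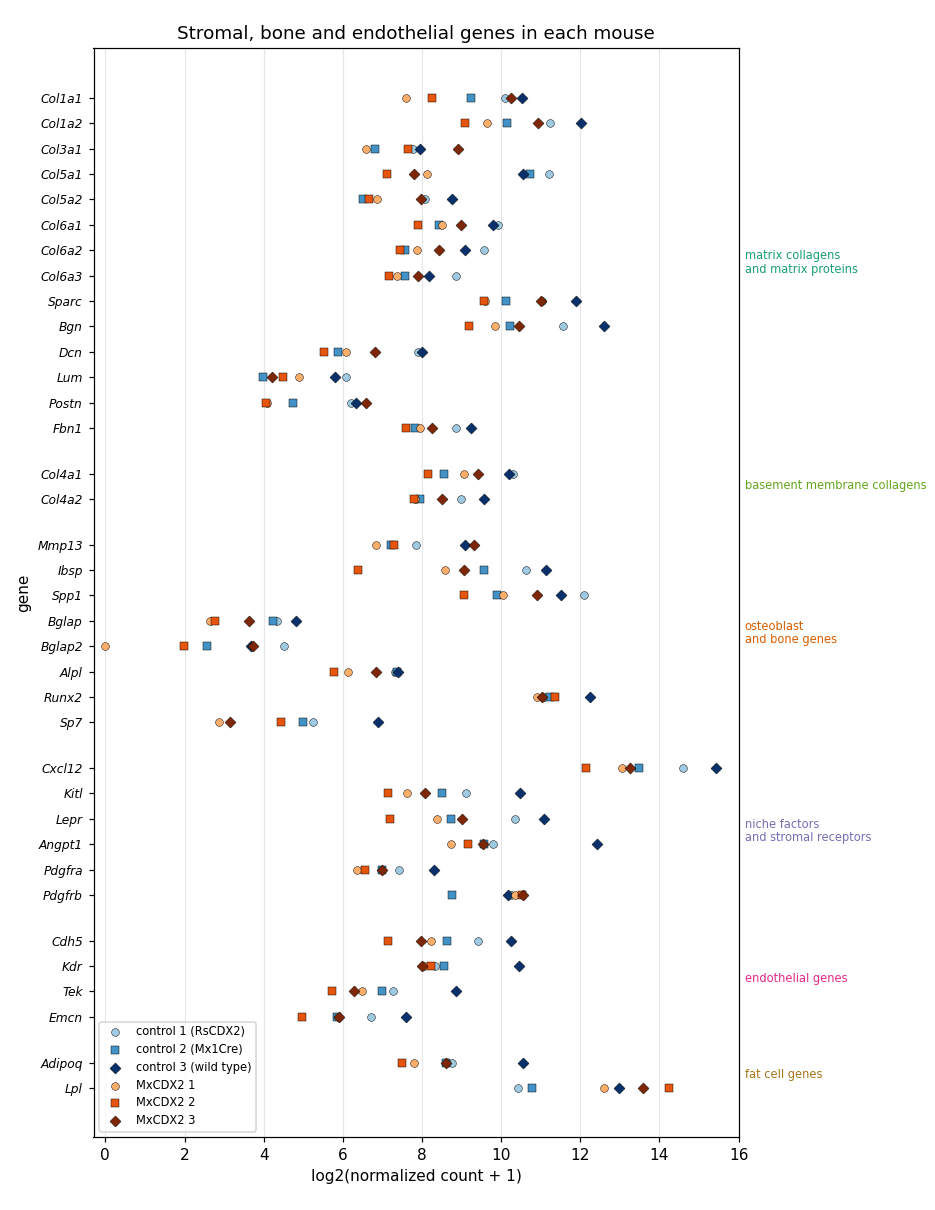
Normalized count of each of the 36 genes in each mouse, as log2(normalized count + 1) on the x axis, grouped by role, with blue symbols for the 3 controls and orange to brown symbols for the 3 MxCDX2 mice. Control 3 (dark blue diamonds) is the highest control in 27 genes and control 2 (blue squares) the lowest in 31, and MxCDX2 3 (brown diamonds) is the highest MxCDX2 mouse in 28.

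Of the 14 matrix genes, 13 had a lower mean in *MxCDX2* marrow and only *Col5a1* passed the test. Among all tested genes, 49.8% had a lower mean and 9.03% were called lower. *Col5a1* encodes the alpha 1 chain of collagen V, which sets the width of collagen I fibrils, and lies on chromosome 2 from 27886425 to 28039514 (GRCm38, plus strand). It had 2359, 1686 and 1499.7 normalized counts in controls 1, 2 and 3, and 279.7, 137 and 221 in *MxCDX2* mice 1, 2 and 3. Every *MxCDX2* mouse was far below every control, and the wild-type control was here the lowest of its group. Control 3 was also the lowest control in the sums of the neutrophil, erythroid and B cell markers. It was the highest in those of the megakaryocyte, the stem and progenitor, and the monocyte and macrophage markers. The part of blood cells in the level of *Col5a1* was not tested. The ratio of the means was 8.69, with a log2 fold change of -3.12 (SE 0.32, adjusted p = 0.00216 by edgeR, where SE is the standard error of the log2 fold change), and the log2 fold change without control 3 was -3.23. *Gm13372*, a transcript annotated on the opposite strand of *Col5a1*, had 103, 80 and 52 counts in the controls and 6, 2 and 6 in the *MxCDX2* mice, or between 1.43% and 5.58% of the counts of *Col5a1* in the same mouse.

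*Col5a2*, the partner chain of collagen V, did not share this pattern. It had 271, 90.4 and 431 normalized counts in the controls and 114, 99.9 and 252 in the *MxCDX2* mice, and its groups overlapped (log2 fold change -0.76, SE 0.61, adjusted p = 0.424 by edgeR). The difference between the chains was not tested.

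Collagen I, the main protein of bone and of fibrous tissue, is built from the chains of *Col1a1* and *Col1a2*. *Col1a1* had 1096, 599.8 and 1478 normalized counts in the controls and 193, 304 and 1206 in the *MxCDX2* mice. *Col1a2* had 2425, 1139.9 and 4159 in the controls and 792, 539.8 and 1944 in the *MxCDX2* mice. In both genes *MxCDX2* mice 1 and 2 were below every control and *MxCDX2* 3 lay within the control range. The log2 fold changes were -0.90 (SE 0.70, adjusted p = 0.41) for *Col1a1* and -1.24 (SE 0.60, adjusted p = 0.194) for *Col1a2* by edgeR, and -0.56 and -0.69 without control 3. The replicate block compares mice of equal number. The labels give the controls no number, so theirs follow the order of the samples, and the labels give no pairing. With this block *Col1a2* passed at -1.26 (adjusted p = 0.00997 by edgeR). Without *MxCDX2* 3, *Col1a1* had a log2 fold change of -2.09 and passed the test (adjusted p = 0.0466 by edgeR).

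*Bgn* encodes biglycan, a small leucine-rich proteoglycan of bone and cartilage, and is X-linked. It had 3002, 1197 and 6246 normalized counts in the controls and 914, 583 and 1408 in the *MxCDX2* mice, so that *MxCDX2* 3 lay just above control 2. Its log2 fold change was -1.85 (SE 0.61, adjusted p = 0.0743 by edgeR) and -1.10 without control 3, and it passed with the replicate block (adjusted p = 0.0131). *Sparc*, which encodes the matrix glycoprotein osteonectin, had 2106, 1116 and 3829 normalized counts in the controls and 773, 761 and 2050.1 in the *MxCDX2* mice. Megakaryocytes also make osteonectin, and both *Sparc* and the megakaryocyte markers were highest among controls in control 3. Their part in the level of *Sparc* was not tested.

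The other matrix genes ranged over log2 fold changes from -1.29 (*Dcn*, the proteoglycan decorin) to 0.43 (*Col3a1*, the fibrillar collagen of soft tissue), and none passed. Collagen VI, a microfibril collagen of 3 chains, gave log2 fold changes of -0.99, -0.99 and -0.79 for *Col6a1*, *Col6a2* and *Col6a3*, and its chains were all highest in control 1. *Lum* (lumican) and *Fbn1* (fibrillin 1, of elastic microfibrils) had log2 fold changes of -1.004 and -0.79. *Postn* (periostin) had 72.8, 25.8 and 80.2 normalized counts in the controls and 15.9, 15.7 and 95.8 in the *MxCDX2* mice, so *MxCDX2* 3 was the highest mouse of all 6. *Col3a1* had 217, 111 and 246 in the controls and 94.3, 199.9 and 479 in the *MxCDX2* mice, again with *MxCDX2* 3 the highest, and without that mouse its log2 fold change was -0.38.

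*Col4a1* and *Col4a2* encode the chains of the basement membrane collagen under vessels, and start within a few bases of each other on opposite strands of chromosome 8. *Col4a1* had 1255, 372 and 1173 normalized counts in the controls and 532, 283 and 679.9 in the *MxCDX2* mice. *Col4a2* had 506, 247 and 759 in the controls and 225, 223 and 359.5 in the *MxCDX2* mice. Both were lowest among controls in control 2 and highest among *MxCDX2* mice in *MxCDX2* 3, the groups overlapped in both, and the log2 fold changes were -0.905 and -0.905 (adjusted p = 0.254 and 0.18 by edgeR).

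All 8 bone genes had a lower mean in *MxCDX2* marrow, and none passed the test. In 4 of them the groups did not overlap, beside 20.7% of all tested genes with every *MxCDX2* mouse below every control. *Ibsp*, bone sialoprotein, had 1582, 755 and 2254 normalized counts in the controls and 379, 82.3 and 530.1 in the *MxCDX2* mice. All *MxCDX2* mice were below all controls, with *MxCDX2* 2 the lowest, and the log2 fold change was -2.21 (SE 0.69, adjusted p = 0.065 by edgeR). *Ibsp* passed when every gene with at least 1 count was tested (adjusted p = 0.048), with DESeq2 (adjusted p = 0.00306) and with the replicate block (adjusted p = 0.00903), and its log2 fold change without control 3 was -1.81. *Spp1*, osteopontin, which macrophages and osteoclasts also make, lies 123.6 kb from *Ibsp* on chromosome 5 and had 4336, 947 and 2941 normalized counts in the controls and 1063, 530.0 and 1932 in the *MxCDX2* mice. Its groups overlapped because control 2 was below *MxCDX2* mice 1 and 3 (log2 fold change -1.22, SE 0.63, adjusted p = 0.218 by edgeR).

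*Sp7* (osterix), the factor that commits cells to the osteoblast fate, was scarce, with 37.1, 30.8 and 117 normalized counts in the controls and 6.36, 20.6 and 7.83 in the *MxCDX2* mice. The groups did not overlap, and the log2 fold change was -2.40 (SE 0.71, adjusted p = 0.0552 by edgeR) with all mice and -1.51 without control 3. *Runx2*, which acts before *Sp7* and is also transcribed in blood cells, had 2176, 2401 and 4880.3 in the controls and 1907, 2612 and 2095 in the *MxCDX2* mice. Apart from control 3 these mice lay in one range, and the log2 fold change went from -0.52 (SE 0.32, adjusted p = 0.3 by edgeR) to -0.03 without control 3.

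*Alpl*, the alkaline phosphatase that mineralizing osteoblasts carry and that neutrophils also express, had the smallest ratio of the highest to the lowest control among the 36, at 1.05. It had 158, 164 and 166 normalized counts in the controls and 68.9, 53.9 and 114 in the *MxCDX2* mice, with no overlap. Its log2 fold change was -1.04 (SE 0.33, adjusted p = 0.069 by edgeR) and -1.01 without control 3. The 7 neutrophil markers were all below every control in every *MxCDX2* mouse, beside 20.7% of all tested genes. Of these markers 6 were called lower, beside 9.03%, and their part in this result was not tested.

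*Bglap* and *Bglap2* encode osteocalcin, the hormone-like protein of mature osteoblasts, and lie 4.8 kb apart on chromosome 3. They share sequence: of the stretches of 50 bases in their transcripts, 56.6% for *Bglap* and 88.2% for *Bglap2* are also found in transcripts of another gene, chiefly each other and *Bglap3*. Reads that map to several places were not counted in any file, so the counts of each gene are uncertain. *Bglap* had 19.2, 17.9 and 27.4 normalized counts in the controls and 5.30, 5.88 and 11.3 in the *MxCDX2* mice, with no overlap (log2 fold change -1.49, SE 0.43, adjusted p = 0.052 by edgeR). *Bglap2* had 21.7, 4.96 and 11.9 in the controls and 0, 2.94 and 12.2 in the *MxCDX2* mice, and the groups overlapped. The 0 in *MxCDX2* 1 still allows up to 3 counts in that library. Summed with *Bglap3*, the cluster had 46.0, 32.8 and 60.2 normalized counts in the controls and 7.42, 10.8 and 23.5 in the *MxCDX2* mice, which did not overlap.

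*Mmp13*, the collagenase of osteoblasts and of cartilage that is turning into bone, had nearly equal means in both groups. It had 227, 148 and 542 normalized counts in the controls and 113, 156 and 641 in the *MxCDX2* mice, and control 3 and *MxCDX2* 3 stood together above the other 4 mice. The log2 fold change was -0.01 with a standard error of 0.76, so that a change of a factor of 2 in either direction lies within 2 standard errors, and it was 0.71 without control 3.

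Of the 6 niche genes, 2 passed the test as lower, *Cxcl12* and *Kitl*, beside 9.03% of all tested genes. In 4 of the 6, every *MxCDX2* mouse was below every control, as in 20.7% of all tested genes. *Cxcl12*, the chemokine that retains stem cells in the marrow, was the most abundant gene of the 36 per kb of exon in controls, and lies on chromosome 6 from 117168535 to 117181367 (plus strand). It had 24582, 11447 and 43917 normalized counts in the controls and 8499, 4536 and 9723 in the *MxCDX2* mice, and every *MxCDX2* mouse was below control 2, the lowest control. The ratio of means was 3.51 and the log2 fold change -1.81 (SE 0.51, adjusted p = 0.0481 by edgeR), but without control 3 it was -1.23 and no longer passed (adjusted p = 0.0802). The call was also lost without control 1 (adjusted p = 0.0905), *MxCDX2* 1 (0.105), *MxCDX2* 2 (0.133) or *MxCDX2* 3 (0.103).

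*Kitl* encodes stem cell factor, the ligand of KIT, and lies on chromosome 10 from 100015630 to 100100416 (plus strand). It had 553, 361 and 1433 normalized counts in the controls and 195, 140.1 and 267 in the *MxCDX2* mice, with no overlap. The log2 fold change was -1.96 (SE 0.54, adjusted p = 0.0452 by edgeR) with all mice and -1.17 (adjusted p = 0.0495) without control 3, and *Kitl* did not pass without control 1 (adjusted p = 0.065) or without *MxCDX2* 1 (0.114), 2 (0.136) or 3 (0.0945). *Lepr*, the leptin receptor that marks the perivascular cells making both factors, had 1293, 424 and 2165 normalized counts in the controls and 329, 146 and 516 in the *MxCDX2* mice. *MxCDX2* 3 lay above control 2, and *Lepr* did not pass (log2 fold change -1.97, SE 0.67, adjusted p = 0.0805 by edgeR). Without control 3 its log2 fold change was -1.36, and with the replicate block it was -1.86 and passed (adjusted p = 0.00689).

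*Angpt1*, angiopoietin 1, a ligand made by perivascular stroma and also by megakaryocytes and stem cells, differed most between the wild-type mouse and the others. It had 893, 751 and 5528 normalized counts in the controls and 423, 572 and 741 in the *MxCDX2* mice. The groups did not overlap, but control 2 and *MxCDX2* 3 nearly touched. The log2 fold change was -2.05 (SE 0.79, adjusted p = 0.114 by edgeR), and -0.49 without control 3, the mouse in which the megakaryocyte markers were also highest.

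*Pdgfra* and *Pdgfrb* encode the PDGF receptors of mesenchymal cells and pericytes and had log2 fold changes of opposite sign. *Pdgfra* had 169, 126 and 313 normalized counts in the controls and 81.6, 94.0 and 125 in the *MxCDX2* mice, a log2 fold change of -1.01 (SE 0.40, adjusted p = 0.118 by edgeR) that was -0.53 without control 3. *Pdgfrb* had 1205, 431 and 1155 in the controls and 1304, 1471 and 1498 in the *MxCDX2* mice. Its log2 fold change was 0.62 (SE 0.37, adjusted p = 0.28 by edgeR) with no overlap between the groups. Neither gene passed. *Pdgfrb* ends at 61085061 on chromosome 18, and the monocyte and macrophage marker *Csf1r* starts at 61100598 on the same strand. *Csf1r* had 6624, 10079 and 9319 normalized counts in the controls and 31519, 40190 and 38295 in the *MxCDX2* mice. It was called higher (log2 fold change 2.08, SE 0.20, adjusted p = 0.00196 by edgeR). The part of this neighbour and of monocytes in the level of *Pdgfrb* was not tested.

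All 4 endothelial genes had a lower mean in *MxCDX2* marrow. In 3 of them every *MxCDX2* mouse was below every control, as in 20.7% of all tested genes. *Cdh5* encodes VE-cadherin, the adhesion protein of endothelial junctions, and lies on chromosome 8 from 104101625 to 104144511 (plus strand). It had 681, 397 and 1224 normalized counts in the controls and 299.8, 141 and 252 in the *MxCDX2* mice. The ratio of means was 3.33 and the log2 fold change -1.73 (SE 0.47, adjusted p = 0.042 by edgeR), but it was -1.21 and did not pass without control 3 (adjusted p = 0.0666). It did not pass without control 1 (adjusted p = 0.0788), *MxCDX2* 1 (0.0673), *MxCDX2* 2 (0.116) or *MxCDX2* 3 (0.118) either.

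The VEGF receptor gene *Kdr* had 319, 373 and 1392 normalized counts in the controls and 265, 301 and 254 in the *MxCDX2* mice. *Tek*, the angiopoietin receptor TIE2, which stem cells also carry, had 152, 126 and 460.4 in the controls and 87.9, 51.9 and 77.5 in the *MxCDX2* mice. In both genes controls 1 and 2 were near each other, and control 3 was 3.65 or more times control 2. The log2 fold change without control 3 was -0.32 for *Kdr*, in place of -1.35, and -0.92 for *Tek*, in place of -1.77. *Emcn*, the sialomucin of sinusoidal and capillary endothelium, had 104, 56.6 and 193 in the controls and 58.3, 30.4 and 58.3 in the *MxCDX2* mice, with overlap only at control 2 (log2 fold change -1.27, SE 0.52, adjusted p = 0.131 by edgeR, and -0.69 without control 3).

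The fat cell genes had log2 fold changes of opposite sign. *Adipoq*, adiponectin, made by fat cells and by the adipocyte-primed marrow stroma, had 429, 389 and 1504 normalized counts in the controls and 222, 178 and 390.0 in the *MxCDX2* mice (log2 fold change -1.55, SE 0.60, adjusted p = 0.113 by edgeR). Without control 3 its log2 fold change was -0.62 (adjusted p = 0.249), and with the replicate block it was -1.35 and passed (adjusted p = 0.0262). *Lpl*, the lipoprotein lipase that macrophages also make, had 1381, 1744 and 8042 in the controls and 6197, 19299 and 12231 in the *MxCDX2* mice. All *MxCDX2* mice were above controls 1 and 2, and *MxCDX2* 1 was below control 3. The log2 fold change of *Lpl* was 1.76 (SE 0.75, adjusted p = 0.145 by edgeR) with all mice and 3.03 (adjusted p = 0.0119) without control 3. Beside it, the 9 monocyte and macrophage markers summed to between 61471 and 89334 normalized counts in controls and between 172882 and 206836 in *MxCDX2* mice. Of these markers 3 were called higher and 2 lower, beside 4.59% and 9.03% of all tested genes. Their part in the level of *Lpl* was not tested.

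**Figure D2:**
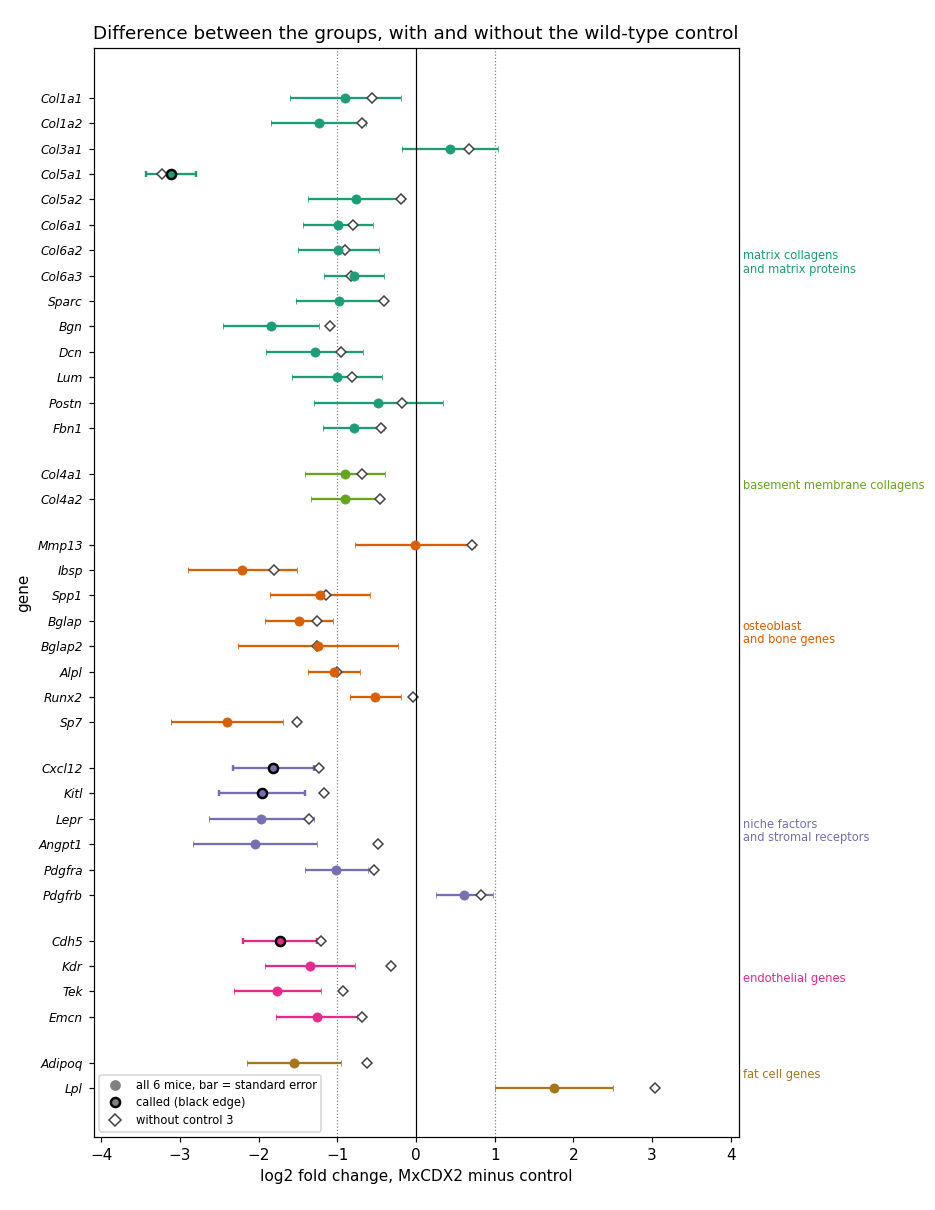
Log2 fold change of each gene, MxCDX2 minus control, as filled circles with standard errors from the fit of all 6 mice, and as open diamonds from the fit without control 3. The 4 called genes have a black edge, dotted lines mark a fold of 2, and 29 of the 36 values are nearer to 0 without control 3, while Col5a1 stays at -3.23 and Lpl moves to 3.03.

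The same mice were high or low in gene after gene. Control 3 was the highest control in 27 of 36 genes (75.0%, against 41.2% of all tested genes), control 1 in the other 9, and control 2 in none. Control 2 was the lowest control in 31 (86.1%, against 31.9%), and control 3 exceeded control 2 more than 2-fold in 32 (88.9%, against 13.4%). Among the *MxCDX2* mice, *MxCDX2* 3 was the highest in 28 (77.8%, against 28.8%) and *MxCDX2* 2 the lowest in 23 (63.9%, against 42.2%). *MxCDX2* 3 was above control 2 in 23 genes (63.9%, against 51.4%). By this tally of genes, the lowest mouse of each group was also the one with the largest share of reads outside annotated genes, 11.34% in control 2 and 14.06% in *MxCDX2* 2. By the sum over all 36 genes given next, *MxCDX2* 1 was the lowest instead, with 9.85%. The part of this share in the results was not tested.

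Summed over all 36 genes, the controls had 56580.2, 28697 and 100800.0 normalized counts and the *MxCDX2* mice 26539, 34379.5 and 41691, so that the groups overlapped. As a share of the reads counted on genes these genes took 603 to 2227 CPM (counts per 1000000) in controls and 590 to 960 CPM in *MxCDX2* mice. *Cxcl12* and *Lpl* carry much of these sums, and *Runx2* is transcribed in blood cells. Without these 3 genes the sums were 28440.2, 13105 and 43961 in the controls and 9936, 7933 and 17643 in the *MxCDX2* mice, with *MxCDX2* 3 above control 2. The log2 ratio of the means was -0.86 for all 36 and -1.27 for the 33.

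**Figure D3:**
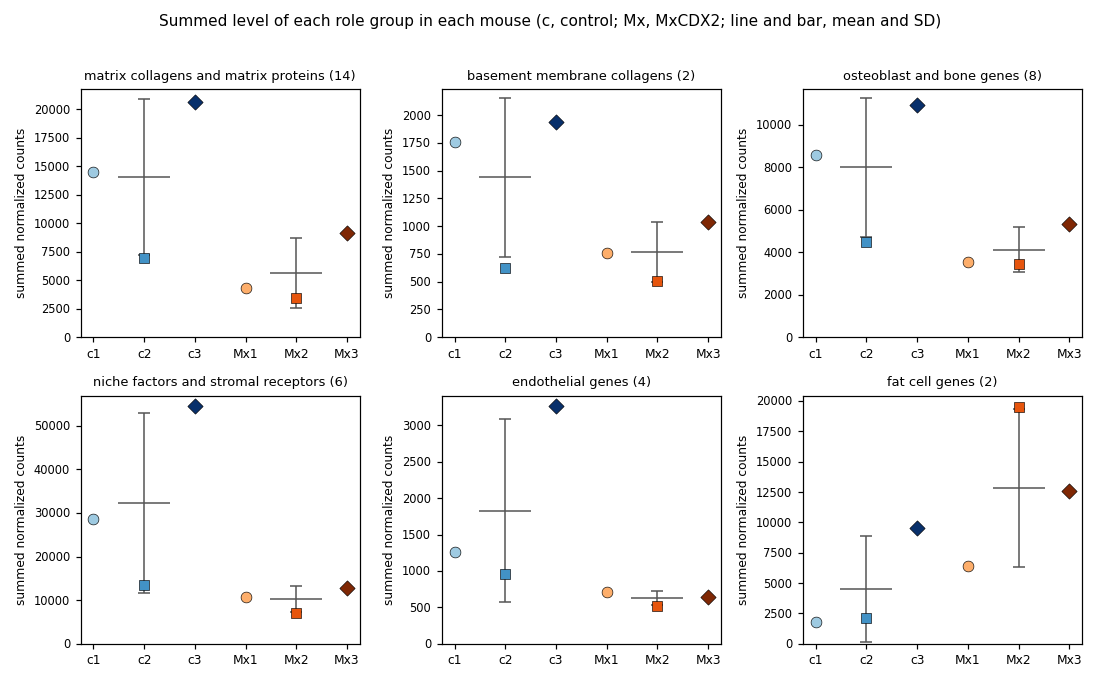
Summed normalized counts of each role group in each mouse (c1 to c3, controls; Mx1 to Mx3, MxCDX2), with a horizontal line at the group mean and a bar of 1 SD drawn at the middle mouse (n = 3). Niche factors sum to 28696, 13540.1 and 54512 in the controls and to 10832, 6959.6 and 12871 in the MxCDX2 mice, and the fat cell panel, made up mostly of Lpl, goes the other way.

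By role, the sums of the niche genes and of the endothelial genes did not overlap between groups, and those of the matrix, basement membrane and bone genes overlapped at control 2. Endothelial genes summed to 1256, 953 and 3270.2 in the controls and to 711, 524 and 642 in the *MxCDX2* mice. Bone genes summed to 8558, 4468 and 10939 in the controls and to 3542, 3463 and 5343 in the *MxCDX2* mice. Matrix genes summed to 14499, 6983 and 20599.6 in the controls and to 4279, 3449 and 9176 in the *MxCDX2* mice.

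Per kb of exon, the levels of the genes spanned a wide range in controls, from 3259 normalized counts per kb for *Cxcl12* and 1663 for *Spp1* to 6.85 for *Postn*. The order changed in the *MxCDX2* mice at the top, where *Lpl* stood first at 1200.2 per kb, *Cxcl12* next at 928 and then *Spp1* at 713. *Col5a1* went from place 10 to place 23 and *Pdgfrb* from place 14 to place 5. All 35 pairs of neighbours in the control order had overlapping values over the 3 controls.

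Several of the genes are neighbours in the genome, and 7 pairs lie within 1 Mb of each other. *Dcn* and *Lum*, 47.0 kb apart on chromosome 10, had log2 fold changes of -1.29 and -1.004, and *Col6a1* and *Col6a2*, 85.2 kb apart on the same chromosome, -0.99 and -0.99. *Col3a1* and *Col5a2*, 24.6 kb apart on chromosome 1 and read in opposite directions, had 0.43 and -0.76. *Pdgfra* and *Kdr* were 734.6 kb apart on chromosome 5, with -1.01 and -1.35.

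Further genes of the same cell types were read from the same fit. Of 31 further stromal and matrix genes, 28 were tested and 4 fell, *Ogn*, *Thbs2*, *Igfbp5* and *Vcam1*, none rose, and the median log2 fold change was -1.27. These 4 are 14.3% of those tested, beside 9.03% of all tested genes called lower, and *Vcam1* is also among the macrophage markers used here. *Ogn*, the bone proteoglycan osteoglycin, had 106, 67.5 and 343 normalized counts in the controls and 29.7, 19.6 and 27.9 in the *MxCDX2* mice (log2 fold change -2.74, SE 0.66, adjusted p = 0.0291 by edgeR, and -1.73 without control 3, where it passed at 0.0194). The call of *Ogn* was lost without *MxCDX2* 1, 2 or 3. *Thbs2*, thrombospondin 2, had a log2 fold change of -2.45 (adjusted p = 0.0485), and of -1.65 without control 3, where it did not pass (adjusted p = 0.0866). Of the 8 basement membrane and collagen partners, 4 fell (*Lamb1*, *Nid1*, *Nid2* and *Col15a1*), or 50% of them, and the median was -1.46. Without control 3, 2 of the 8 were called, and *Nid2* was not called without *MxCDX2* 2. *Col15a1*, a collagen of vessel basement membranes, had a log2 fold change of -2.02 (adjusted p = 0.032) that was -1.79 and did not pass without control 3 (adjusted p = 0.0592), and *Nid2*, the linker nidogen 2, of -1.98 (adjusted p = 0.0161). These genes bind or sit beside collagen IV, whose own chains did not pass.

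Of the 18 further endothelial genes, 5 fell (*Esam*, *Stab2*, *Flt4*, *Robo4* and *Mmrn2*), or 27.8%, beside 9.03% of all tested genes called lower. None rose, and all 18 were highest among controls in control 3. Without that mouse 3 of the 18 were called, and *Mmrn2* was not called in any of the 6 fits without 1 mouse. *Esam*, a junction protein of endothelium that platelets also carry, had 535, 425 and 3230.1 normalized counts in the controls and 228, 122 and 188 in the *MxCDX2* mice (log2 fold change -2.96, SE 0.83, adjusted p = 0.0472 by edgeR). Without control 3 its log2 fold change was -1.40 and still passed (adjusted p = 0.0208), and with the replicate block it did not pass (adjusted p = 0.0577). *Esam* was not called without *MxCDX2* 1, 2 or 3 either. *Stab2*, the scavenger receptor of sinusoidal endothelium, had 787, 911 and 2024 in the controls and 294, 265 and 399 in the *MxCDX2* mice (log2 fold change -1.96, SE 0.40, adjusted p = 0.0167 by edgeR, and -1.39 without control 3). The call of *Stab2* was lost without *MxCDX2* 1 or 2. Among 9 pericyte and smooth muscle genes, 7 were tested and 2 fell, or 28.6%, beside 9.03% of all tested genes. *Mcam* was at -2.89 (adjusted p = 0.00216 by edgeR) and *Acta2* at -2.07 (adjusted p = 0.00952). Both were lowest among controls in control 3, like *Col5a1*.

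Of the 15 further bone genes, 10 were tested and none passed, with a median of -0.56, and *Sost*, a marker of osteocytes buried in bone, had no counts in any mouse. Osteoclasts, the cells that resorb bone, were represented by 9 genes, 7 of them tested. *Acp5*, their tartrate-resistant phosphatase, fell by 2.79 on the log2 scale (adjusted p = 0.00459) and *Mmp9*, a gelatinase that neutrophils make as well, by 1.51 (adjusted p = 0.0172). These 2 are 28.6% of those tested, beside 9.03% of all tested genes called lower, and *Mmp9* was not called without *MxCDX2* 3. The other 5 tested had no call, and the median was -2.21. None of the 6 tested further fat cell genes passed.

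**Figure D4:**
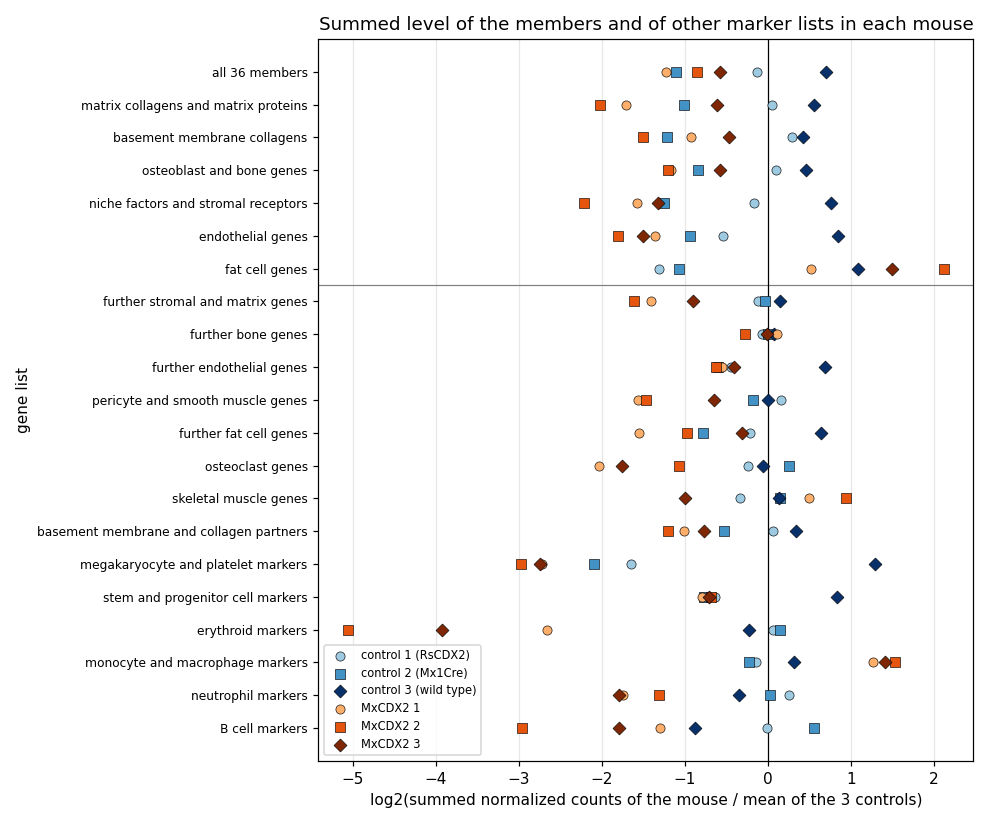
Summed normalized counts of each gene list in each mouse, as log2 of the ratio to the mean of the 3 controls, with the 36 genes and their 6 role groups above the grey line and the other lists below it. Control 3 is far to the right of the other controls for the megakaryocyte markers, and the MxCDX2 mice are to the left of all controls for erythroid, neutrophil and B cell markers and to the right for monocyte and macrophage markers.

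Genes of other tissue that could come with marrow were counted too. Of 6 cartilage genes only 1 had enough counts to be tested, and their sum was between 19.9 and 83.9 normalized counts in controls and between 22.5 and 39.2 in *MxCDX2* mice. The 6 skeletal muscle genes summed to 367, 512 and 506 in the controls and to 651, 888 and 231 in the *MxCDX2* mice, so that *MxCDX2* 1 and 2 held the most. Of the 5 tested, *Mylpf* was called lower and none higher, while the other 4, *Ckm*, *Tnnt3*, *Myh4* and *Acta1*, had log2 fold changes of 2.57, 1.96, 1.62 and 1.41. *Tnnt3* was higher in every *MxCDX2* mouse than in every control, the median of the list was 1.62, and the part of muscle RNA in the results was not tested. The blood cell lists moved with the groups as well. All 6 erythroid markers were called lower, as were 6 of 7 neutrophil and 3 of 6 B cell markers, beside 9.03% of all tested genes. So were 2 of 10 megakaryocyte and 3 of 9 stem and progenitor markers, and none of these lists had a gene called higher. All 10 megakaryocyte markers lay below every control in every *MxCDX2* mouse, as did 20.7% of all tested genes. Their median log2 fold change was -3.09, and without control 3, 6 of the 10 were called lower. The part of the blood cell lists in the values of the stromal genes was not tested.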

How the data were processed

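RNA of the bone marrow of 3 *MxCDX2* and 3 control mice was sequenced from stranded mRNA libraries. Per the submitters' processing notes and the methods, the authors used bcl2fastq 2.17.1.14, mapped reads to GRCm38 by STAR 2.5 and counted reads on genes by HTSeq 0.6.1, and they deposited raw counts per gene without normalization. The genes and lists were chosen with earlier results of these data known, so nothing here is an independent test of their direction. All 36 genes are named, and from the other lists the called genes with the largest absolute log2 fold change, up to 2 in each direction, with the other called genes listed by name after their values were seen.

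Symbols and positions came from GENCODE M21 (37693 of 39179 identifiers matched). The test was that of edgeR 4.0.16 in R 4.3.3 (TMM, filterByExpr, glmQLFit, glmQLFTest), with Benjamini-Hochberg adjustment over 15980 genes, and thresholds of 0.05 for the adjusted p and 1 for the absolute log2 fold change. Standard errors were derived from the F statistic. No test was run over a list or a sum. An exact two-sided permutation test of 3 mice against 3 cannot go below p = 0.1. The mice are separate animals by their labels. Alternatives were DESeq2 1.42.0 (the tool of the methods), limma 3.58.1 (voom), other scalings and filters, the replicate number as a block, and each mouse left out. On simulated counts for this comparison edgeR found 173 of 200 changed genes (86.5%) with 8 false calls over 15747 genes, and made 0 calls with none changed over 15741 genes. DESeq2 made 58 and 25 false calls in the same settings over 15980 genes. The changed genes were drawn from abundant genes only, and those raised had a median log2 fold change of 1.98 in the edgeR fit. The 86.5% therefore does not carry over to scarcer genes or to smaller changes. Each gene was drawn independently, with no mouse that stood apart over many genes at once. The found and false calls therefore do not carry over to genes that rise and fall together by mouse. The libraries held 38646101 to 49899650 counts on genes. Reads assigned to no gene made up 9.22% to 14.06% and ambiguous reads 2.99% to 3.16%, and both stayed out of library sizes. Shared stretches were counted in GENCODE M21 transcripts. Python 3.11.15, pandas 2.3.3, numpy 2.4.6, scipy 1.17.1 and matplotlib 3.10.9 made the other tables and the figures.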

Additional observations from a re-analysis of the deposited data

How the results depend on the processing

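Over all tested genes, 2177 were called, with 3471 at any fold change (1583 of them higher) and 1205 to 2406 when 1 mouse was left out (694 to 1482 of them lower). Of the 36 genes, 4 were called, all lower, and *Col5a1* was called in every alternative listed here. The count was 2 with total counts only, 1 with limma voom, 13 with DESeq2 (12 lower and 1 higher), and 1 to 7 when 1 mouse was left out (1 to 7 lower and 0 to 1 higher). It was 1 without control 1, *MxCDX2* 1 or *MxCDX2* 2, 2 without *MxCDX2* 3, 3 without control 3 and 7 without control 2, and the cause was not tested. With the replicate block, 9 of the 36 were called, all lower, with *Col1a2*, *Bgn*, *Ibsp*, *Lepr* and *Adipoq* added to the 4. The labels give the controls no number, so the numbers used in the block follow the order of the samples. Deviations from the group means correlated over 15980 genes at 0.219, 0.276 and 0.188 for equal numbers and between -0.29 and 0.0379 for unequal ones. Because each group's own mean was subtracted, positive values for equal numbers tend to bring negative ones for unequal numbers. These correlations therefore do not show that the mice were paired. *Mmp13* changed sign, to 0.087 with total counts only, 0.029 with every gene of at least 1 count, 0.00045 with DESeq2, and from -1.18 to 0.71 when 1 mouse was left out. *Col3a1* ranged from -0.38 to 0.83 when 1 mouse was left out. The log2 ratio of the summed endothelial genes ranged from -1.85 to -0.80 and that of the fat cell genes from 1.09 to 2.73 when 1 mouse was left out, and without *Lpl* the latter was -1.55. The sum of all 36 was -0.30 without control 3.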
